A study of Mus musculus with 18 samples.

Results

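Control cortical interneurons were compared at 2 embryonic ages, E14.5 and E18.5. They were taken as the 3 arrays titled as E18.5 controls and the 3 titled as E14.5 controls, which make 6 of the 18 arrays of the series, with every probe set that the annotation ties to 1 gene. The comparison covered 14292 genes, 1 probe set each. All cells of the series carried the GAD65-GFP transgene, in which regulatory sequence of the GABA-synthesising enzyme GAD65 drives green fluorescent protein, and were sorted by flow cytometry from dissociated brain tissue. By their labels the sorted cells were interneurons from the caudal ganglionic eminence (CGE). Both groups described here had the GAD65-GFP genotype with Htr3a unaltered, and the labels tie E14.5 to tangential migration and E18.5 to entry into the cortical plate. The series also held control arrays of P2, and Htr3a-KO arrays of all 3 ages, in which the ionotropic serotonin receptor gene Htr3a was knocked out. At least 4 brains were pooled for an array, with 1 of 3 litters behind each array of a group, so p-values measure the spread between pooled litters. GAD65-GFP labels the cells that use this promoter, so a sort on it can hold GABAergic cells of other origins.

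Cortical interneurons are the inhibitory neurons of the cortex. They are born in the ganglionic eminences of the ventral forebrain, migrate tangentially into the cortex along guidance cues such as semaphorins, then turn radially into the cortical plate and settle in a layer. CGE cells become mostly the Vip, Reln and Ndnf classes of the superficial layers, whereas neurons of the neighbouring lateral eminence become striatal projection neurons.

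The labelled cell type was first set against its markers. Values are log2 intensities from robust multi-array averaging (RMA), in which 1 unit is a 2-fold step, and levels are compared between arrays and never between genes. Gad1, a GABA-synthesising enzyme, read 12.34, 12.29 and 10.88 in the E14.5 arrays and 11.59, 11.86 and 11.72 in the E18.5 arrays. Nr2f2, a transcription factor of CGE cells, read 10.29, 10.12 and 8.83 and then 9.39, 9.13 and 9.29. Lhx6, the factor that marks interneurons of the medial eminence (MGE), read 9.43, 9.74 and 9.63 and then 9.88, 9.70 and 9.29, so RNA of the other eminence was present at both ages. Neurod6, a factor of excitatory neurons, read 12.12, 11.97 and 12.38 and then 11.86, 11.62 and 11.79. None of the 4 genes passed the threshold, and the sorted samples of both ages held excitatory neuron RNA beside interneuron RNA.

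E14.5 control array 3 stood apart from the other E14.5 controls. On the second principal component of the 6 arrays, which held 16.4% of the variance, it lay at −29.7 against 13.8 and 12.2. The mean level of the 8 GABA identity genes tested was 10.22 and 10.07 in arrays 1 and 2 and 8.56 in array 3, against 8.73 to 9.28 at E18.5. The 21 striatal projection neuron genes averaged 9.44, 9.86 and 8.22 in the same order, against 7.37 to 7.56 at E18.5. Excitatory genes went the other way, at 9.57, 9.60 and 10.05. So did cell cycle genes (9.53, 9.68 and 9.90), radial glia and progenitor genes (8.68, 8.70 and 9.30) and astrocyte genes (7.19, 7.24 and 7.84). In E14.5 Htr3a-KO arrays the GABA list lay at 9.20 to 9.35 and the striatal list at 7.85 to 8.66, both below E14.5 control arrays 1 and 2. Marker levels thus varied between arrays of the same age, and the source of this spread was not tested. In bulk RNA fewer cells of a type and less RNA per cell cannot be told apart. Several results that moved with array 3 are given with and without it, and others are given only with it. The mean of the 4 sex-linked genes tested was 5.89 in E18.5 array 2 and 8.18 to 9.04 in the other 5 arrays. Array medians lay between 6.35 and 6.43, and the Gapdh 3' minus 5' difference, a sign of RNA integrity, at 1.63 to 1.99 for E14.5 and 1.64 to 1.84 for E18.5. The same difference for actin was 0.57 to 0.76 for E14.5 and 0.59 to 1.04 for E18.5, highest in E18.5 array 2.

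**Figure D1:**
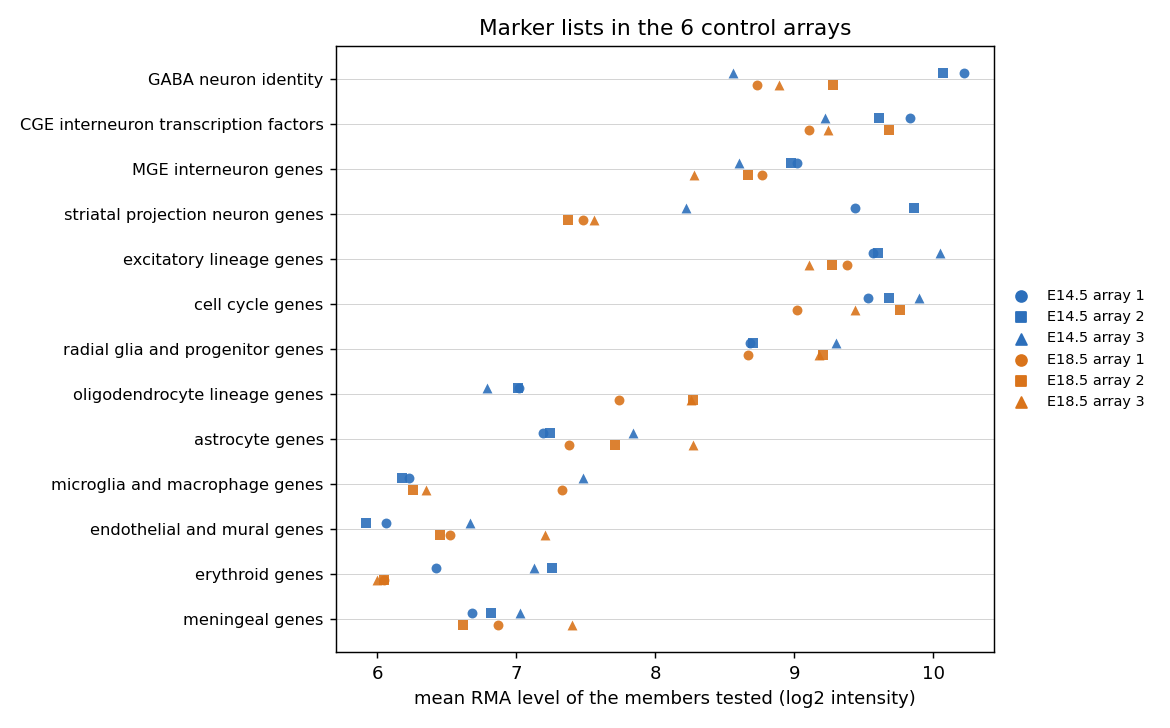
Mean RMA level (log2 intensity, x axis) of the tested members of 13 marker lists in each of the 6 control arrays, blue for E14.5 and orange for E18.5, with 1 marker shape per array number. E14.5 array 3 (blue triangle) sits at 8.56 for GABA identity and 8.22 for striatal genes, below the other E14.5 arrays. It lies above them for the excitatory, cell cycle, radial glia, astrocyte, microglia, endothelial and meningeal lists.

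Between E14.5 and E18.5, 1571 genes passed the threshold, 866 higher and 705 lower at E18.5. The threshold was an adjusted p under 0.05 in limma, with Benjamini-Hochberg adjustment over all 14292 genes, and "rose" and "fell" are used only of such genes. The background is thus 11.0% of genes in either direction, 6.06% for a rise and 4.93% for a fall, and each list below is read against it. The change was at least 2-fold in 308 of the rises and 141 of the falls, and at least 4-fold in 53 and 17. Array values of the ages did not overlap for 4413 genes (30.9%), and 3645 genes had an unadjusted p under 0.05. The count was 916, 1039 and 1299 without E14.5 control array 1, 2 or 3 and 938, 1417 and 926 without E18.5 control array 1, 2 or 3. Of the genes, 403 that rose and 239 that fell passed whichever array was left out, and any gene called below without a further remark is one of these. Fitted on the 6 control arrays alone 1293 passed, and of the genes named below Bdnf, Cux1, Dlx5, Dlx6, Ednrb, Fezf2, Foxp2, Npas4, Pbx3 and Six3 did not (adjusted p from 0.0533 for Cux1 to 0.132 for Dlx5). Differences are E18.5 minus E14.5 in log2 units, ± the standard error (SE) of the fit where one is given.

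**Figure D2:**
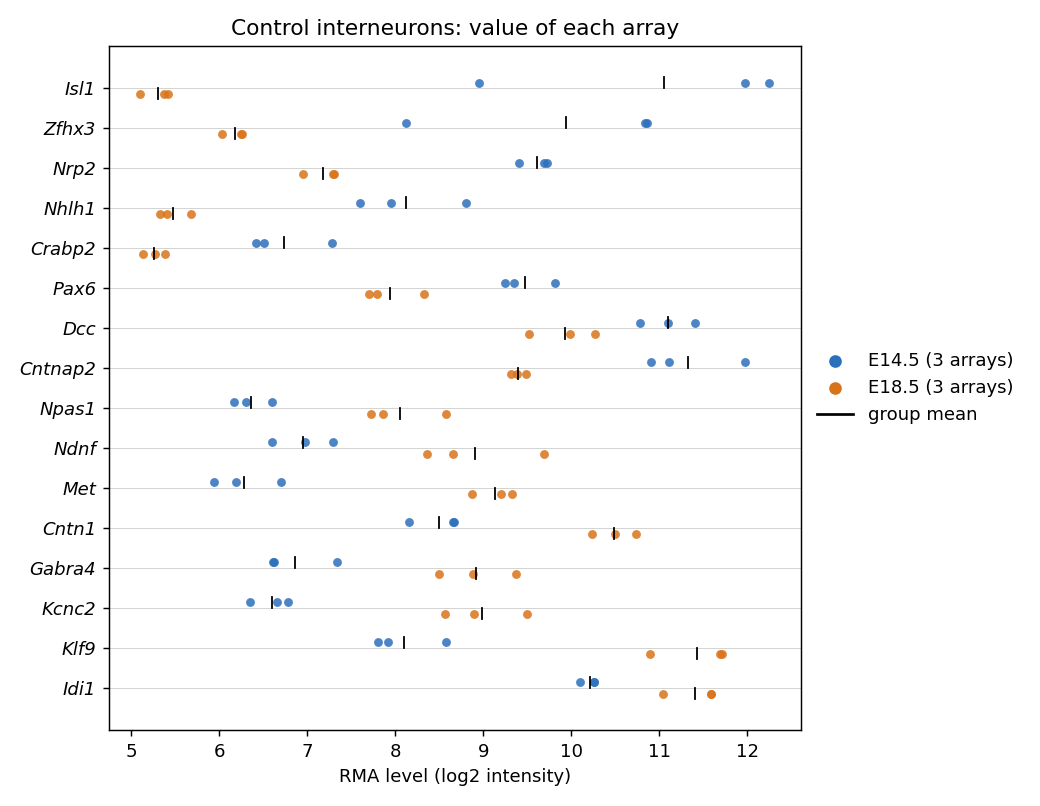
RMA level (log2 intensity, x axis) of 16 genes in each control array, blue for E14.5 and orange for E18.5, with a black bar at each group mean (n = 3 arrays). The first 8 genes fell and the last 8 rose, and for none of them did the arrays of the ages overlap. Isl1 and Zfhx3 show the low value of E14.5 array 3.

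Transcription factors of striatal and lateral eminence neurons held 4 of the 5 largest falls of the comparison. Isl1, which directs striatonigral neurons, read 11.97, 12.25 and 8.95 at E14.5 and 5.10, 5.42 and 5.37 at E18.5, a difference of −5.76 ± 0.87 (adjusted p = 7.23e-04). Even the low E14.5 array was far above every E18.5 array. Ebf1, another factor of striatal neurons, fell by 4.90 to values under the level of 5.255 at which dim probe sets were filtered, so the size of its fall is set against a dim signal. Zfp503 differed by −4.03, Zfhx3 by −3.76 and Six3, an eminence patterning factor, by −2.08. Without E14.5 array 3 these differences were −6.81 for Isl1, −5.82 for Ebf1, −4.82 for Zfp503, −4.67 for Zfhx3 and −2.79 for Six3. Foxp2 and Bcl11b, factors of projection neurons, differed by −1.63 and −1.16, and Penk, the enkephalin precursor of striatopallidal cells, by −1.06. In all, 11 of the 21 list members fell and 0 rose, against 4.93% of all genes, with a list median of −1.46 (−1.89 and 14 falls without E14.5 array 3). The dopamine receptor gene Drd1 stood at 7.81, 8.55 and 7.92 and then 7.63, 7.42 and 7.88 and did not pass. The share of striatal cells in the sorted samples was not measured, and its part in these falls was not tested.

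Of the 8 genes of GABAergic identity tested 2 fell, the homeobox genes Dlx5 (read 10.08, 9.86 and 8.32 and then 8.07, 8.19 and 8.37) and Dlx6 (8.79, 8.92 and 6.24 and then 5.98, 5.91 and 5.56), and 0 rose. Neither call held throughout. Dlx5 passed only without E14.5 array 3, and lost its call without each of the other 5 arrays. Dlx6 lost its call without E14.5 array 1 (adjusted p = 0.0595) or array 2 (0.0559). In the list 4 genes fell without array 3, 0 without array 1 or 2, and 1 without any 1 of the E18.5 arrays. Gad2, the gene of GAD65, read 11.57, 11.38 and 9.34 at E14.5 and 9.34, 10.35 and 9.32 at E18.5 and did not pass (adjusted p = 0.126), though it fell with the mean of its probe sets (−1.37, adjusted p = 0.0401) and without E14.5 array 3 (−1.80, adjusted p = 0.00107). Its E14.5 array 3 was level with E18.5 arrays 1 and 3 and below E18.5 array 2. For Slc32a1, the vesicular GABA transporter, E14.5 array 3 was level with the E18.5 arrays (10.13, 10.04 and 8.82 and then 8.53, 8.93 and 8.81). Slc32a1 did not pass, and fell without that array (−1.33, adjusted p = 0.00613).

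Among factors of the CGE lineage, Npas1 rose and Pbx3 fell. Npas1, a bHLH-PAS repressor of CGE-derived interneurons, read 6.60, 6.17 and 6.30 at E14.5 and 7.72, 8.58 and 7.86 at E18.5, a difference of +1.70 ± 0.33 (adjusted p = 0.00396). Pbx3, a homeobox cofactor, differed by −2.06 ± 0.42. Prox1, which CGE interneurons need for migration and maturation, read 6.86, 5.26 and 4.74 and then 6.70, 7.27 and 6.56 and did not pass (adjusted p = 0.0582), though it rose without E14.5 array 1 (+1.84, adjusted p = 0.00144). Sp8, a zinc-finger factor of the same lineage, differed by −0.00, with 9.15, 8.64 and 7.73 at E14.5 and 7.72, 9.52 and 8.27 at E18.5. Of the 12 factors tested 1 rose and 3 fell. The falls numbered 1 without E14.5 array 1 or 2 or without E18.5 array 3, and the rises 2 without E14.5 array 1.

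Of 18 subclass markers of CGE interneurons 7 rose, against 6.06% of all genes, and 1 fell. Htr3a, the serotonin-gated channel subunit of this class, read 8.49, 7.99 and 7.65 at E14.5 and 9.64, 10.79 and 10.58 at E18.5 (difference +2.29 ± 0.26). Ndnf, a secreted factor that marks neurogliaform and layer 1 cells, read 6.60, 6.97 and 7.29 and then 9.69, 8.66 and 8.36. Cck, the cholecystokinin precursor of basket cells, rose by +1.51 ± 0.26. Crh, the corticotropin-releasing hormone gene, fell by 1.95 to 4.64, 4.52 and 4.63, under the filter level of 5.255. Vip, which defines the bipolar class, was near or under the filter level at both ages (5.39, 4.94 and 4.97, then 5.42, 5.87 and 5.64) and did not pass, and its P2 control arrays averaged 7.43 ± 0.13 (SD, n = 3). Calb2, the calretinin gene, spread from 8.06 to 10.35 at E14.5 alone and differed by +0.24. With 1 array left out the rises numbered 4 to 6, and 4 without E14.5 array 1 or without E18.5 array 1. Of the 7 rises, 3 held without any 1 array. Among 14 MGE genes 0 rose and 2 fell, with Grik3, a kainate receptor subunit, at −1.17 ± 0.21 and a list median of 0.00, and 1 fall without E14.5 array 1 or 2 or without E18.5 array 3.

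Several factors of early neural and excitatory development, taken from more than 1 list, were among the falls. Nhlh1, a bHLH factor of newborn neurons, read 7.60, 7.95 and 8.80 at E14.5 and 5.40, 5.68 and 5.32 at E18.5, a difference of −2.65 ± 0.32 (adjusted p = 1.26e-04). Zfp521, a zinc-finger factor of early neural cells, read 10.05, 10.35 and 10.28 and then 7.84, 7.96 and 8.08 (adjusted p = 1.06e-07). Tfap2c and Tfap2d, members of the AP-2 family, differed by −2.57 and −2.52. Pax6, a factor of cortical progenitors, differed by −1.54 ± 0.26. Neurog2, which commits cells to the excitatory lineage, differed by −1.57, and Fezf2, a factor of deep-layer excitatory neurons, read 10.14, 10.26 and 11.30 and then 9.07, 7.28 and 9.34. In the excitatory list 5 of 17 fell and 1 rose (Cux1, a factor of upper-layer neurons, at +0.66, but +0.12, adjusted p = 0.613 with the mean of its probe sets), with 3 falls without E18.5 array 3. The 22 neuronal differentiation factors had 4 falls and 1 rise, and 2 falls without E14.5 array 2 or 3 or without E18.5 array 1 or 3. The rise was lost without E14.5 array 1 or 2 or without E18.5 array 2. Dcx, the microtubule protein of migrating neurons, lay within 13.02 to 13.13 over the 6 arrays on its brightest probe set, but its other 3 probe sets were lower at E18.5, with differences down to −0.56, and it did not pass on the mean of all 4 (−0.20, adjusted p = 0.406).

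Cell cycle genes gave 0 calls among 44 (6 at an unadjusted p under 0.05 in limma), although 37 of the 44 differences were below 0 and their median was −0.31, against −0.01 over all genes. The proliferation marker Mki67 read 10.53, 10.74 and 10.87 at E14.5 and 9.99, 10.84 and 10.41 at E18.5. Among 10 timing genes, Igf2bp3, an RNA-binding protein of fetal tissues, fell by 0.71 (SE 0.14), and Igf2bp1 differed by −0.20 and did not pass, though it fell with the mean of its probe sets (−0.90, adjusted p = 8.66e-04). Of 29 BAF and Polycomb subunit genes 4 fell and 1 rose. The falls held for Cbx2, a Polycomb chromobox protein (−0.84 ± 0.17), and Eed, a core subunit of the complex that methylates histone H3 (−0.63 ± 0.13), whereas 2 fell without E14.5 array 1 or without E18.5 array 1 or 3. The rise was lost without E14.5 array 1 or without any 1 of the E18.5 arrays. Zbtb4, a reader of methylated DNA, rose by +0.67 as the 1 call among 16 DNA methylation genes.

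Retinoic acid genes had 4 falls among 16 and 1 rise, and the rise was lost when any 1 array was left out. Crabp1, a cytosolic carrier of retinoic acid, read 7.04, 8.48 and 7.52 and then 4.50, 4.79 and 4.66, the later values under the filter level. Crabp2, its relative, differed by −1.48 ± 0.18 and Rai1, a retinoic acid induced nuclear protein, by −0.43 ± 0.09 (−0.34, adjusted p = 0.102 with the mean of its probe sets). The list median was −0.16, against −0.01 over all genes. Of the 4 falls, 3 held without any 1 array. Rarb, a retinoic acid receptor gene, ranked 7th in size among the falls without overlap. It is left out of the named genes counted below and is not given here as a call that held.

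Among semaphorin, plexin and neuropilin genes Nrp2 differed most. Nrp2, the co-receptor through which class 3 semaphorins repel migrating interneurons, read 9.72, 9.69 and 9.41 at E14.5 and 6.95, 7.29 and 7.30 at E18.5, a 5.38-fold fall (adjusted p = 8.24e-05). P2 controls averaged 7.25 ± 0.22 (SD, n = 3). Nrp1, the other neuropilin, read 11.02, 10.74 and 11.42 and then 11.52, 11.78 and 10.84 and did not pass. Plxna4, a plexin that signals with neuropilins, differed by +0.49 ± 0.25, and Sema3a, the ligand named with it in the series title, by +0.17 ± 0.25, and neither passed. With the mean of its probe sets Plxna4 rose (+0.81, adjusted p = 0.013). Of 5 secreted class 3 semaphorins 0 passed (1 at an unadjusted p under 0.05 in limma), with differences from −0.14 for Sema3f to +0.67 for Sema3c. Without E18.5 array 3 Sema3c rose (+0.95, adjusted p = 0.0157).

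Membrane semaphorins went in both directions. Sema6d fell by 1.47 and Sema5a by 1.31, both transmembrane cues for axons, while Sema4f, a neuronal class 4 member, rose by +1.03. Together with the plexins B to D, 4 of 18 fell and 2 rose. The falls numbered 2 without E14.5 array 1 or 2 or without E18.5 array 1, and the rises 1 without any 1 of the 6 arrays. Dcc, the netrin receptor, read 10.78, 11.10 and 11.41 and then 10.27, 9.52 and 9.98, and Flrt2, an Unc5 ligand with a fibronectin-like repeat, differed by −1.27 ± 0.28. Of 8 ephrins 0 passed (2 at an unadjusted p under 0.05 in limma), and of 12 Eph receptors 1 fell, a call that was lost without E18.5 array 3.

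Trophic and chemotactic genes gave 7 rises and 2 falls among 23. Met, the receptor of hepatocyte growth factor, read 6.70, 5.94 and 6.19 at E14.5 and 8.87, 9.20 and 9.33 at E18.5, a difference of +2.86 ± 0.28 (adjusted p = 2.20e-05). Ednrb, an endothelin receptor, rose by +1.70 ± 0.35. Npr3, the clearance receptor of natriuretic peptides, rose by +2.76 from values under the filter level (4.09, 4.36 and 4.18). Bdnf, the neurotrophin made by active neurons, rose by +1.18 ± 0.27, and Nrg1, the neuregulin that attracts interneurons through ErbB4, fell by 0.86. Cxcr4, the chemokine receptor of the migratory streams, read 7.71, 7.54 and 7.61 and then 7.29, 7.83 and 6.88 and did not pass. In this list 4 rises and 1 fall held without any 1 array. The fall that did not hold was lost without E18.5 array 3.

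Genes of the migration machinery gave 5 rises and 3 falls among 50. Rnd2, a small GTPase that acts in radial migration, read 11.71, 11.76 and 12.13 and then 10.35, 10.68 and 10.18 (adjusted p = 2.26e-04), and Mapt, the axonal tau protein, rose by +0.99 ± 0.16. These were the calls that held. The rises numbered 1 or 2 without E14.5 array 1, 2 or 3 or without E18.5 array 2 or 3, and the falls 1 without E18.5 array 1 or 3.

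Of 9 NMDA and metabotropic glutamate receptor genes 6 rose and 0 fell, against 6.06% of all genes rising, and 4 of the rises held without any 1 array. Grin3a, an NMDA subunit of young neurons, read 5.94, 6.13 and 5.58 at E14.5 and 7.38, 7.35 and 7.57 at E18.5. Grin2b, the NMDA subunit that prevails before birth, rose by +1.65 ± 0.34. Grm5, a group I metabotropic receptor, rose by +1.18 ± 0.22 (+0.61, adjusted p = 0.128 with the mean of its probe sets). Grm3, a group II receptor also made by glia, rose by +3.16 ± 0.43, and its P2 controls averaged 12.25 ± 0.37 (SD, n = 3). Among 19 AMPA and kainate genes 4 rose and 1 fell, and the rises numbered 2 without E14.5 array 1 or 3 or without E18.5 array 1. Gria2, the subunit that keeps AMPA receptors from passing calcium, read 10.38, 10.23 and 10.33 and then 11.37, 11.50 and 11.50, and Cacng5, a transmembrane AMPA receptor regulator, rose by +1.37 ± 0.33.

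Of 14 genes of GABA receptors and chloride transporters 5 rose and 0 fell, and 4 rises held without any 1 array. Gabra4, an alpha subunit of the GABA-A receptor, read 6.62, 6.61 and 7.34 at E14.5 and 9.37, 8.49 and 8.88 at E18.5, a difference of +2.06 ± 0.25 (adjusted p = 1.43e-04). Gabrb1 rose by +1.89 ± 0.29 and Gabra2, a subunit of the fetal brain, by +1.11 ± 0.23. Gabbr1, a subunit of the metabotropic GABA-B receptor, rose by +0.70 ± 0.12 (+0.28, adjusted p = 0.182 with the mean of its probe sets). Of the chloride transporters that set the direction of the GABA current, Slc12a5 (KCC2, the exporter) read 8.60, 9.11 and 8.05 and then 9.23, 9.22 and 9.69 and did not pass (adjusted p = 0.0836), though it rose without E14.5 array 2 (+1.06, adjusted p = 0.0383). Slc12a2 (NKCC1, the importer) differed by +0.18 ± 0.18 (−0.23, adjusted p = 0.356 with the mean of its probe sets). Of 14 serotonin, dopamine and acetylcholine receptor genes 1 rose, Htr3a itself, and 0 fell, with 2 rises without E14.5 array 3 or E18.5 array 2 and 2 falls without E14.5 array 3.

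Potassium channel genes gave 8 rises and 2 falls among 42. Kcnc2, a fast delayed rectifier of interneurons, read 6.78, 6.35 and 6.65 at E14.5 and 8.89, 9.50 and 8.56 at E18.5. Kcnf1, a silent subunit that modifies other channels, rose by +1.66 ± 0.22. Kcnip2 and Kcnip4, calcium-binding partners of the A-type channels, rose by +1.40 and +1.57, the second from a mean under the filter level. Kcnq5, a subunit of the M current, rose by +1.43 (+1.13, adjusted p = 0.07 with the mean of its probe sets). Kcng1, another silent subunit, fell by 1.04. The falls numbered 4 without E14.5 array 3 and 1 without E18.5 array 3. Sodium, calcium and HCN channels gave 4 rises and 0 falls among 24, with Cacna1d, the pore of an L-type calcium channel, at +1.31 ± 0.25 and Scn3b, a sodium channel beta subunit, at +0.92 ± 0.17. Without E18.5 array 1 or 3 the rises numbered 2.

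Among 39 vesicle release genes 8 rose and 1 fell. Rims1, a scaffold of the active zone, read 7.99, 8.17 and 7.79 at E14.5 and 9.52, 9.08 and 9.22 at E18.5. Doc2a, a calcium sensor of spontaneous release, rose by +1.38 ± 0.23, and Cplx1, a clamp of the fusion machinery, by +0.56 ± 0.11. Of the Unc13 vesicle priming proteins, Unc13c rose by +1.46 from a mean under the filter level, and Unc13b fell by 0.76. The rises numbered 4 without E14.5 array 1 and 5 without E18.5 array 1 or 3, and the falls 2 without E14.5 array 3.

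Cell adhesion genes of synapses and axons held 12 rises and 1 fall among 47, and 9 of the rises and the fall held without any 1 array. Cntn1, an immunoglobulin-type contactin of axons, read 8.15, 8.67 and 8.65 at E14.5 and 10.50, 10.24 and 10.73 at E18.5, a difference of +2.00 ± 0.20 (adjusted p = 2.99e-05). Lsamp and Opcml, GPI-anchored IgLON proteins, rose by +1.71 ± 0.20 and +2.31 ± 0.37. Cntn6, a contactin, rose by +2.19 from values under the filter level (5.01, 5.28 and 4.49). The postsynaptic organisers Nlgn3, Lrrtm2 and Slitrk2 rose by +0.97, +1.24 and +1.09, and Ptprd, a presynaptic receptor phosphatase, by +1.03 (+0.57, adjusted p = 0.233 with the mean of its probe sets). Chl1, a relative of the L1 adhesion protein, rose by +0.86. Against these, Cntnap2, a neurexin-related protein of axons, fell from 11.11, 11.97 and 10.90 to 9.31, 9.49 and 9.38. The falls numbered 3 without E14.5 array 3 and 2 without E18.5 array 3. The cadherin list had 1 rise and 1 fall among 25, with Pcdh11x, an X-linked protocadherin, at +1.26 ± 0.20, and 4 rises without E18.5 array 2. Its falls numbered 0 without E14.5 array 2 or E18.5 array 1 and 2 without E14.5 array 3.

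Neuropeptide systems were split. Npy1r, a receptor of neuropeptide Y, read 6.77, 6.71 and 5.77 and then 8.05, 8.12 and 8.35 and rose by +1.76 ± 0.28, and Pcsk1, a prohormone convertase, rose by +0.92 ± 0.19. The somatostatin receptors Sstr3 and Sstr2 fell, with differences of −1.44 and −0.83, Sstr3 to values under the filter level. Of 32 genes 5 rose and 4 fell, and the 4 falls, which include Crh and Penk, held without any 1 array. The rises numbered 3 without E14.5 array 3 or without E18.5 array 1 or 3.

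**Figure D3:**
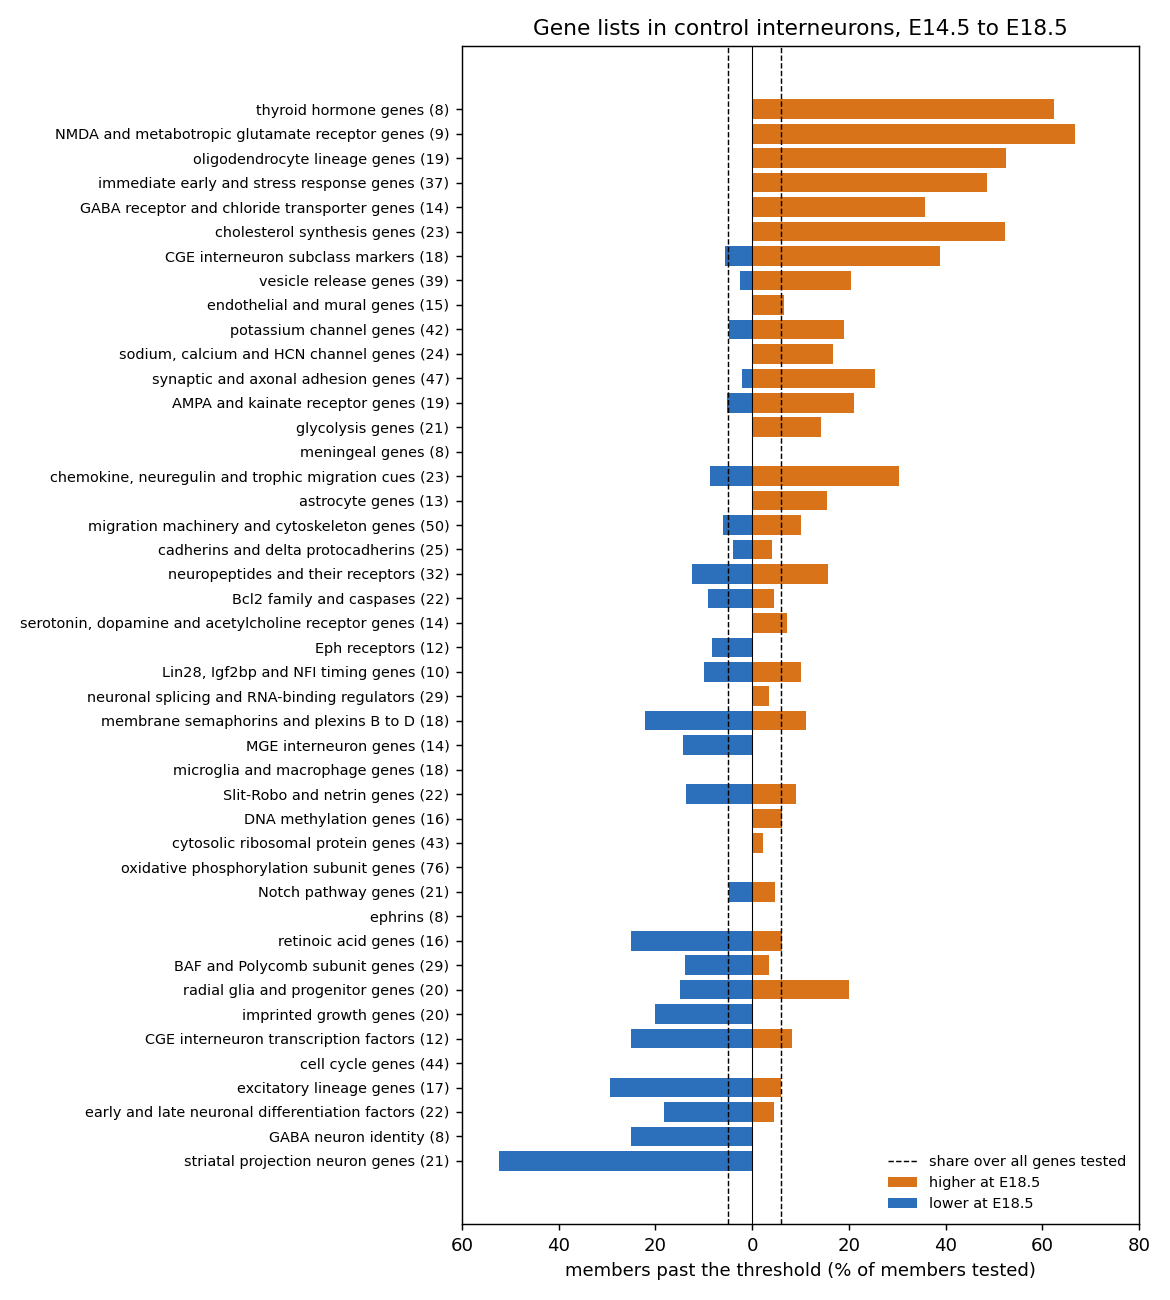
Share of tested members past the threshold (x axis, percent) in 44 gene lists with at least 8 members tested, to the right for genes higher at E18.5 and to the left for genes lower, ordered by list median, with the number of members tested in brackets. The dashed lines mark 6.06% and 4.93%, the shares over all genes. Rises reach 66.7% in the NMDA and metabotropic receptor list and falls 52.4% in the striatal list.

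Immediate early genes, which neurons switch on within minutes of depolarisation and which tissue handling also induces, rose in 18 of 37 cases and fell in 0. Fos, the AP-1 subunit, read 10.79, 11.76 and 11.38 at E14.5 and 13.45, 13.09 and 13.31 at E18.5. Fosb differed by +3.17 ± 0.37 and Egr2, a zinc-finger factor, by +3.12 ± 0.35. Egr1 read 9.85, 10.73 and 10.66 and then 12.45, 12.54 and 12.41. The orphan receptors Nr4a1 and Nr4a3 rose by +2.37 and +2.02, Npas4, a factor induced by calcium entry, by +2.27, and Dusp6, a phosphatase of ERK, by +1.87. The Krüppel-like factors Klf6 and Klf2 rose by +2.11 and +1.32, Per1, a clock gene, by +1.16, and Ier2 by +1.51. In all, 12 of the rises held without any 1 array, and the list median was 0.79 (1.1, with 21 rises, without E14.5 array 3). The heat shock genes Hspa1a and Hspa1b, induced by stress, differed by −0.20 ± 0.74 and −0.89 ± 0.69 and did not pass, and neither did Atf3 (+0.05 ± 0.60). Sorting and dissociation times by age are not given in the sources used here, and their part in these rises was not tested.

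Promoter sequence was read for these genes because many of them rose. Of the 37 genes tested 30 had an entry among the RefSeq promoters (GRCm38.p6), and the 250 bases before each start were searched on both strands. The cyclic AMP response element TGACGTCA was found in 2 of the 30 and in 0 of the 14 that rose, against 2.9% of the 11474 tested genes with an entry. The CArG box of serum response factor was found in 3 of the 30 and in 1 of the 14, against 1.4%. The shorter sequence TGACG, which is contained in the full cyclic AMP element, was found in 18 of the 30 and in 10 of the 14 that rose, against 29.1%. The 150 bases before the start of 3 genes that rose are shown, with TGACG or its complement CGTCA in capitals. Fos lies at chr12:85473740-85473889 on the plus strand, Fosb at chr7:19310046-19310195 on the minus strand and Nr4a1 at chr15:101266696-101266845 on the plus strand.
Fos: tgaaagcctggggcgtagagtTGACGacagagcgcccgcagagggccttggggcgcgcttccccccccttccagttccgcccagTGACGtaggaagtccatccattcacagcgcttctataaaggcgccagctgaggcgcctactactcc
Fosb: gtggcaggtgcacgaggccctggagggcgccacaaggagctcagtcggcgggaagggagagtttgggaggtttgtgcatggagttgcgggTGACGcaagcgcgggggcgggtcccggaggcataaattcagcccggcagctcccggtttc
Nr4a1: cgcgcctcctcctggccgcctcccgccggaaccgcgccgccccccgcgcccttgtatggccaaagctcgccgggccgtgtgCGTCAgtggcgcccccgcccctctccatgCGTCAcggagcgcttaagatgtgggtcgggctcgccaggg
In Fos and Nr4a1 the sequence occurred at 2 positions and in Fosb at 1, and a match of these letters is not a measured binding site. Only windows that hold the sequence were shown, so a match in each was fixed by that choice. Npas4, which was also looked up, gave no such window.

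Genes of thyroid hormone signalling rose in 5 of 8 cases and fell in 0, with a list median of 1.30. Klf9, a Krüppel-like factor that thyroid hormone and glucocorticoids induce, read 7.80, 7.92 and 8.58 at E14.5 and 11.71, 10.89 and 11.69 at E18.5, a difference of +3.33 ± 0.24 (adjusted p = 8.10e-07). The lowest E18.5 array was E18.5 array 2, still above every E14.5 array. Slco1c1, a transporter that takes thyroxine into brain cells, read 5.71, 5.21 and 5.83 and then 8.09, 8.76 and 8.60. Dio2, the deiodinase that converts thyroxine into the active hormone, rose by +2.51 ± 0.30 from values under the filter level (4.87, 4.62 and 4.76). Hr, a corepressor that thyroid hormone induces, rose by +0.47 ± 0.10 (+0.23, adjusted p = 0.126 with the mean of its probe sets). The receptor gene Thra was at 12.08, 12.15 and 12.17 and then 12.43, 12.38 and 12.65 and did not pass (adjusted p = 0.0512, 0.0343 with trended and robust variance and 0.0498 without E18.5 array 2). Slco1c1 and Dio2 are also made by astrocytes and vessels. The 13 astrocyte genes averaged 7.19, 7.24 and 7.84 at E14.5 and 7.38, 7.71 and 8.27 at E18.5. Their median difference was 0.15, and 0.34 without E14.5 array 3. The 15 endothelial and mural genes averaged 6.06, 5.92 and 6.67 and then 6.52, 6.45 and 7.21. All 15 of their differences were above 0, with a median of 0.34. In both lists E14.5 array 3 was the highest of its age. The lists had 2 and 1 rises (1 in the astrocyte list without E14.5 array 1 or 2 or without E18.5 array 3). The part of astrocytes and vessels in the rises of the thyroid hormone genes was not tested.

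Cholesterol synthesis genes rose in 12 of 23 cases, 52.2% against 6.06% of all genes, and fell in 0. Rises were found at several steps of the pathway. The other 11 members did not pass, and 3 of the 23 differences were below 0. Hmgcs1, which makes the precursor of mevalonate, read 12.04, 12.22 and 12.04 at E14.5 and 13.01, 12.95 and 13.01 at E18.5. Mvd and Idi1, which make the isoprene units, rose by +1.08 ± 0.17 and +1.20 ± 0.16. Sqle, which forms squalene epoxide, rose by +0.70 ± 0.12. The later enzymes Cyp51, Hsd17b7 and Sc5d rose by +0.72, +1.11 and +0.77 (Sc5d +0.33, adjusted p = 0.073 with the mean of its probe sets). Insig1, the sterol-sensing brake on the pathway's transcription factor, rose by +1.18 ± 0.22. These 8 held without any 1 array, and the list median was 0.58 with and without E14.5 array 3. Srebf1, the factor that serves fatty acid more than sterol genes, was at 8.36, 8.78 and 8.86 and then 8.02, 8.29 and 8.25 and did not pass, nor did the exporter gene Abca1 (−0.29 ± 0.17).

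Promoter sequence was read for this pathway too. Of the 23 genes 19 had a RefSeq promoter entry, and CCAAT, the box bound by NF-Y, lay in the 250 bases before the start on either strand in 17 of the 19. It lay in 10 of the 10 that rose and had an entry, against 39.7% of the 11474 genes. NF-Y is known as a partner of the sterol factor SREBP on such promoters. The sterol regulatory element TCACNCCAC was found in 1 of the 19, Hmgcs1, against 1.3%. The 150 bases before the start of 5 genes that rose are shown, with CCAAT or its complement ATTGG in capitals. Hmgcs1 lies at chr13:119690201-119690350 and Idi1 at chr13:8885456-8885605, both on the plus strand. Mvd lies at chr8:122443423-122443572, Hsd17b7 at chr1:169969206-169969355 and Cyp51 at chr5:4104698-4104847, all on the minus strand.
Hmgcs1: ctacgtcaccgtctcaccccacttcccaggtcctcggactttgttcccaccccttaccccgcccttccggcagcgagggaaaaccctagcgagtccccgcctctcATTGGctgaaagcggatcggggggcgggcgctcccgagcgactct
Idi1: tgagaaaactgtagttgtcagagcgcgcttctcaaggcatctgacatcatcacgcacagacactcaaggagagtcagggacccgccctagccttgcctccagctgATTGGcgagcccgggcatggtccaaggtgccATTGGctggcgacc
Mvd: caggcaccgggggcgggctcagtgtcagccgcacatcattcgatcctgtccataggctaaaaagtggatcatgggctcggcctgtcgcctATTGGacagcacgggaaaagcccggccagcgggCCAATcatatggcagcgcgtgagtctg
Hsd17b7: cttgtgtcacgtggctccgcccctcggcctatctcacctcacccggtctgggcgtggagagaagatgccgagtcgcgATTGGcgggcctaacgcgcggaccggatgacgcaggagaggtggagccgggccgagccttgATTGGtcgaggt
Cyp51: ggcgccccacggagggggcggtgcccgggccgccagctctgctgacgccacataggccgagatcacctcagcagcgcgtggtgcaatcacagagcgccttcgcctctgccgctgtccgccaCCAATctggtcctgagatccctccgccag
Idi1, Mvd and Hsd17b7 hold the box at 2 positions and Hmgcs1 and Cyp51 at 1, with the nearest box starting 12 bases before the start in Hsd17b7 and 45 in Hmgcs1. These motifs were chosen with the gene lists already known to rise, so the shares are descriptions. The windows shown were picked for holding the box, and Insig1, which was also looked up, gave no such window.

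Other housekeeping systems gave few calls. Of 76 oxidative phosphorylation subunit genes 0 passed (5 at an unadjusted p under 0.05 in limma), with 65 differences below 0 and a median of −0.14. Among 43 cytosolic ribosomal protein genes 1 rose, Rpl12 at +0.92 ± 0.18, and 0 fell, with a median of −0.09. Glycolysis genes gave 3 rises among 21, of which Slc2a3, the neuronal glucose transporter (+0.96 ± 0.17), and Pdk1, a kinase that holds pyruvate back from mitochondria (+0.75 ± 0.17), held without any 1 array. With the mean of its probe sets Pdk1 did not pass (+0.20, adjusted p = 0.356). A small common shift of many genes can stay under the threshold of a gene by gene test with 3 arrays an age.

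**Figure D4:**
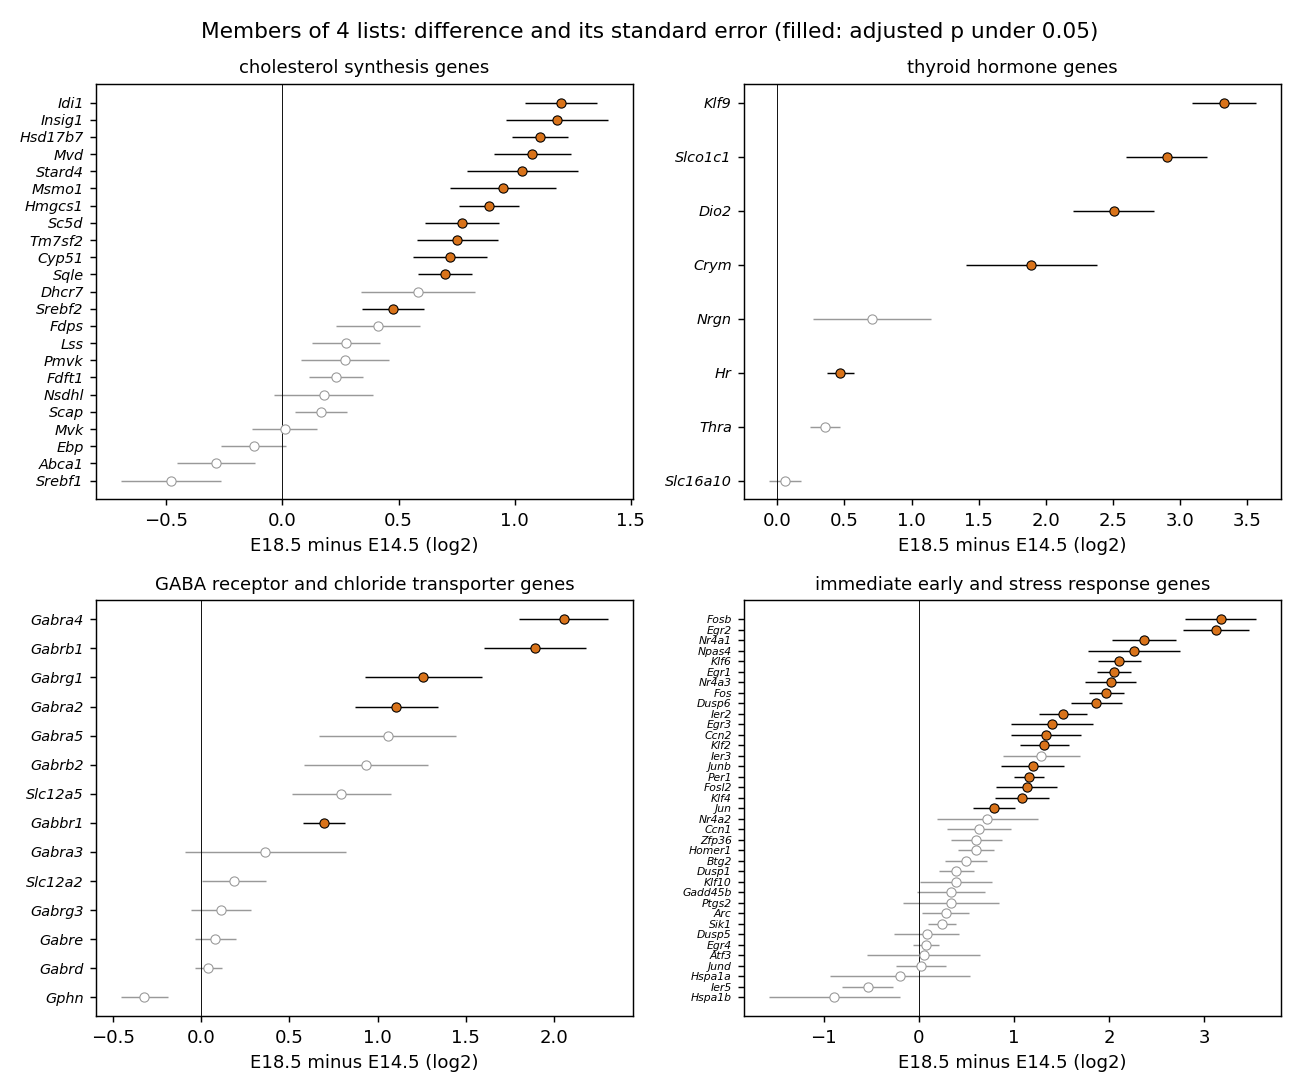
Difference between E18.5 and E14.5 (log2, x axis) for every tested member of 4 lists in control arrays, with the standard error of the fit as a horizontal bar (n = 3 arrays an age) and filled points for genes past the threshold. Among cholesterol genes 12 of 23 points are filled, and among thyroid hormone genes 5 of 8, with Klf9 farthest right at +3.33.

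Oligodendrocyte lineage genes held the 2 largest rises. Olig1, a bHLH factor of oligodendrocyte precursors, read 7.28, 7.21 and 7.25 at E14.5 and 11.49, 12.57 and 12.65 at E18.5. Pdgfra, the growth factor receptor of these precursors, read 6.97, 7.06 and 6.80 and then 10.10, 11.25 and 11.29, and Olig2 rose by +3.41. In all 3 of these genes E18.5 array 1 was the lowest of its age. Sox10, Gpr17, Tnr and Lhfpl3, all of the precursor stage, rose by +1.79, +1.38, +1.80 and +1.23 (Lhfpl3 +0.77, adjusted p = 0.059 with the mean of its probe sets). Mbp, a myelin protein, read 8.94, 9.26 and 8.70 and then 8.78, 8.76 and 8.67 and did not pass. Of 19 genes 10 rose and 0 fell, 7 of them whichever array was left out. Egfr and Tnc, listed with progenitors and also used by glial precursors, rose by +3.90 ± 0.26 and +2.93 ± 0.39, and Ptprz1, a phosphatase of glial and progenitor cells, by +1.04. The 6 probe sets of Egfr ran from −0.04 to +3.90, and with their mean Egfr rose by +1.33 (adjusted p = 2.49e-05). Of the 20 progenitor genes 4 rose and 3 fell, with 1 fall without E18.5 array 1 and 5 without E18.5 array 2. In that list 11 differences were below 0, and the median was −0.17 (0.05 without E14.5 array 3). Aldh1l1, an astrocyte enzyme, rose by +1.67 ± 0.33, while Aqp4, the astrocyte water channel, read 3.64, 3.29 and 4.22 and then 3.60, 4.17 and 5.91, mostly under the filter level, and did not pass.

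Markers of blood, vessels and microglia gave few calls. Hbb-y, the embryonic beta-globin, read 7.56, 10.19 and 9.75 at E14.5 and 5.19, 5.31 and 5.13 at E18.5 and fell by 3.96 to a level under the filter. Of 18 microglia genes 0 passed (0 at an unadjusted p under 0.05 in limma). Csf1r, the receptor of microglia and macrophages, read 7.80, 7.53 and 9.97 and then 10.26, 8.02 and 8.43, so that 1 array of each age stood high. The 8 meningeal genes averaged 6.68 to 7.03 at E14.5 and 6.62 to 7.40 at E18.5, with 0 calls (0 at an unadjusted p under 0.05). The 1 endothelial and mural gene that rose lost its call without E14.5 array 1 or 2 or without E18.5 array 3, and 2 rose without E14.5 array 3.

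Of the remaining lists, 20 imprinted growth genes had 4 falls and 0 rises, with 1 fall without E14.5 array 1 or without E18.5 array 1 or 2 and 2 without E14.5 array 2. The 22 genes of the Bcl2 family and caspases had 1 rise, Bcl2l2, a survival protein, at +0.62 ± 0.13 (+0.18, adjusted p = 0.173 with the mean of its probe sets), and 2 falls, neither of which held. Without E18.5 array 2 there were 3 rises. Among 21 Notch genes 1 rose and 1 fell, and among 29 splicing and RNA-binding regulators 1 rose, and none of these 3 calls held. Large changes outside the themes above included genes of varied or little known function. Mlip, a lamin-interacting protein best known from muscle, read 4.37, 4.61 and 5.30 at E14.5 and 8.73, 7.53 and 8.58 at E18.5. Necab1, a neuronal calcium-binding protein, read 4.97, 5.08 and 5.27 and then 8.30, 6.97 and 8.95. Slc26a7, an anion transporter, read 5.33, 5.29 and 6.76 and then 9.17, 8.10 and 9.10, and Nwd2 rose by +3.69 ± 0.50. The E14.5 means of Mlip and Necab1 were under the filter level. For Mlip, Necab1, Slc26a7 and Nwd2 the lowest E18.5 array was array 2, and all remained above every E14.5 array. In all, 1009 of the genes tested stood in 1 of the 48 lists, and 1367 of the 1571 genes that passed stood in none.

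The same step was then read in the Htr3a-KO arrays, which share no array with the controls. In these, 894 genes rose (6.26%) and 1269 fell (8.88%). Of the 866 genes that rose in controls 498 also rose in Htr3a-KO (57.5% of the control list and 55.7% of the Htr3a-KO list), and of the 705 that fell 393 also fell (55.7% and 31%). The Htr3a-KO difference had the same sign for 838 (96.8%) of the control rises and 684 (97%) of the falls, where 36.4% of all genes were above 0 and 63.4% below 0 in Htr3a-KO. No gene passed in opposite directions in the genotypes. The median difference of the control rises was 0.81 in controls and 0.59 in Htr3a-KO, and that of the falls −0.65 and −0.52. The genes were chosen on the control values, so the control medians are not independent of that choice. Fitted on each genotype's own 6 arrays, 733 rose and 560 fell in controls, of which 373 and 235 passed in both genotypes and 708 and 541 kept their sign.

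For some of the groups described above, the values of both genotypes are given side by side. Nrp2 differed by −2.43 in controls and −2.43 in Htr3a-KO, Olig1 by +4.99 and +4.98, Met by +2.86 and +2.66, and Cntn1 by +2.00 and +1.91. Cholesterol genes rose in 8 of 23 cases in Htr3a-KO, thyroid hormone genes in 3 of 8, immediate early genes in 15 of 37 (with 1 fall) and adhesion genes in 15 of 47 (with 3 falls). Klf9 rose by +2.28 in Htr3a-KO (adjusted p = 4.23e-05). The striatal genes gave 4 falls of 21 there and a median of −0.48, against 11 and −1.46 in controls. Isl1 differed by −3.04 in Htr3a-KO, from 6.21, 9.34 and 10.38 to 4.93, 5.58 and 6.30, and its E14.5 values lay below those of E14.5 control arrays 1 and 2. The oligodendrocyte list gave 12 rises of 19 in Htr3a-KO and a median of 1.36, against 0.99 in controls. Counts or medians of other lists also differed between the genotypes. The 18 CGE subclass markers gave 2 rises and 1 fall in Htr3a-KO (median 0.18), against 7 and 1 in controls (median 0.4). The 32 neuropeptide genes gave 1 rise and 7 falls, against 5 and 4. The cell cycle median was 0.02 in Htr3a-KO and −0.31 in controls.

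**Figure D5:**
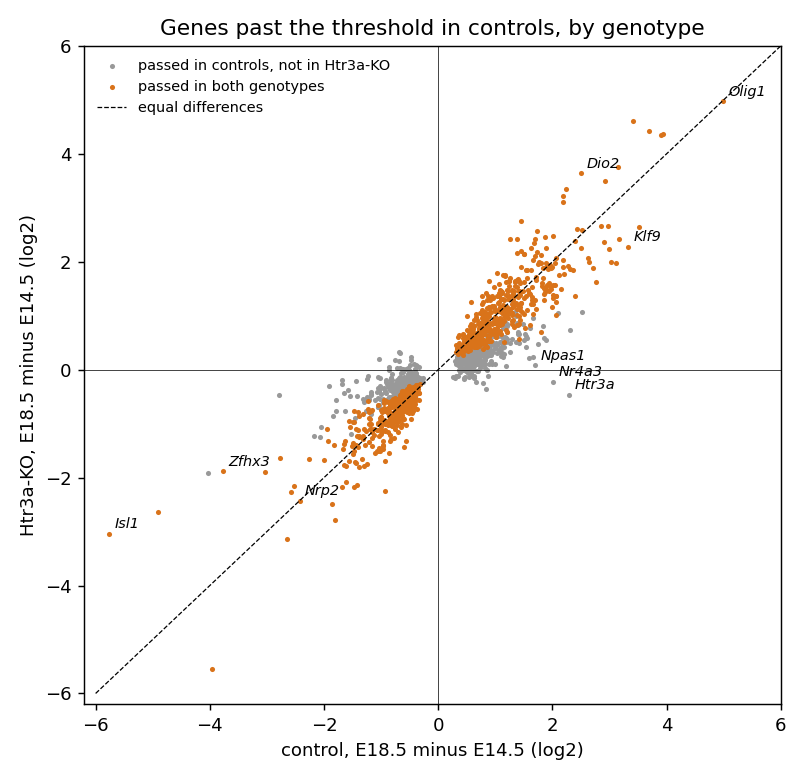
Difference between E18.5 and E14.5 (log2) in Htr3a-KO arrays (y axis) against that in control arrays (x axis) for the 1571 genes that passed in controls. Orange points passed in both genotypes and grey points in controls and not in Htr3a-KO, and the dashed line marks equal differences. Nr4a3, Npas1 and Htr3a lie near the horizontal line at 0, and Isl1 lies far above the dashed line.

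In the interaction test 1 of 14292 genes passed (0.00700%), Htr3a itself, and 1032 genes had an unadjusted p under 0.05. Htr3a read 7.41, 7.29 and 7.19 in E14.5 and 6.61, 6.79 and 7.09 in E18.5 Htr3a-KO arrays, so its rise of +2.29 in controls stood against −0.47 there. The interaction was −2.76 ± 0.37 (adjusted p = 0.0207), and 0 genes passed without E14.5 control array 2, without E18.5 control array 2 or 3, or without E14.5 or E18.5 Htr3a-KO array 1 or 2. Without E14.5 control array 3, 16 genes passed, and without E14.5 Htr3a-KO array 3, 6 genes. Npas1 differed by +0.08 in Htr3a-KO and Nr4a3 by −0.22, against +1.70 and +2.02 in controls, and the adjusted p of their interactions was 0.685 and 0.201. Bdnf likewise stood at +0.08 against +1.18 (interaction adjusted p = 0.685), and Isl1 at −3.04 against −5.76 (0.685). These 4 differences between genotypes did not pass.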

How the data were processed

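RNA of sorted GAD65-GFP cells was hybridised to 18 Mouse Genome 430 2.0 arrays, per the labels' protocols and design text. Per these, the authors normalised signals by RMA with the Partek Genomic Suite, version 6.6, which leaves log2 intensities as the deposited values. They were used as deposited, and 0 sample columns were left unused. Of 45101 probe sets 34945 named 1 gene. Those with a mean in the lowest 30% (under 5.255) were left out, and each of 14292 genes was read from its probe set of highest mean. A bright probe set can measure 1 transcript form, so calls were also made on the mean of probe sets.

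The fit used limma (version 3.58.1, under R 4.3.3) and gave 1 mean per group of age and genotype over all 18 arrays (12 residual degrees of freedom), moderated p-values and Benjamini-Hochberg adjustment. The Htr3a-KO step and the difference of the steps came from the same fit. Symbols are those of the array annotation. Arrays carry no counts, and their number limits the precision. The code was tested on simulated data.

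The 48 gene lists, the members and the promoter motifs were chosen with earlier results of these data known. Named genes are list members past the threshold with the smallest p, defining members that did not pass, the genes of the series title and of GABA synthesis, and the 15 largest rises and falls without overlap. Gene models known only by a number, and some named members that lost their call without 1 array, are counted and not named. Alternatives changed the filter, probe set rule, normalization, variance model, array weights, arrays fitted, threshold, replicate block and arrays left out. Promoters were read from RefSeq (GRCm38.p6).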

Additional observations from a re-analysis of the deposited data

Results flagged for a closer look

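Htr3a was the 1 gene whose step differed between genotypes by the interaction test of the fit. Its Htr3a-KO step minus its control step was −2.76 log2 units (adjusted p = 0.0207 in limma), higher at E18.5 in 3 of 3 control arrays and lower in 3 of 3 Htr3a-KO arrays than at E14.5. The labels do not state where the probe set lies against the deleted part of the gene.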

How the results depend on the processing

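The count of genes that passed in controls, 1571, ran from 916 to 1417 when 1 array was left out, and was 3166 with array weights, 2359 over all probe sets and 2391 at an adjusted p under 0.10. The Htr3a-KO count, 2163, ran from 928 to 1982, and was 4795, 3778 and 3434 under these settings and 1268 with a change of at least 1.5-fold, where rises made up 53.6% of the calls against 41.3%. The count of genes whose step differed between genotypes, 1, ran from 0 to 16, and was 41 with array weights and 0 with the replicate block or with only the arrays compared. None of the 127 named genes that passed changed sign in any setting run. Of those that did not pass, some did. With 1 array left out Atf3 ran from −0.29 to 0.57, Calb2 from −0.24 to 0.90, Csf1r from −0.21 to 1.24, Gad1 from −0.59 to 0.14, Hspa1a from −0.56 to 0.33 and Lhx6 from −0.11 to 0.19. With the mean of probe sets Dcx turned to −0.20, Sema3a to −0.04, Sema3f to 0.04 and Slc12a2 to −0.23. With array weights Gad2, Plxna4, Sema3c, Slc32a1, Srebf1 and Thra also passed. Same-numbered control arrays deviated together with correlations of 0.02, −0.01 and 0.07, and Htr3a-KO arrays with 0.08, 0.1 and 0.38. The litters differ between the ages, so the numbers were not taken to pair them in the main fit. With the replicate block 1394 genes passed in controls, and of the named genes Dlx5 lost its call (adjusted p = 0.0609). The causes of these differences were not tested. Of the named genes that passed, at least 1 other probe set differed in sign for Bcl2l2, Cux1, Egfr, Gabbr1, Hr, Kcnip2, Nr4a3, Pdk1, Ptprd and Slitrk2, and of those that did not, for Dcx, Gad1, Mbp, Nr2f2, Sema3a, Sema3f, Slc12a2 and Slc32a1. For other genes that passed, a further probe set had the same sign but a small difference. Examples are Six3 (−0.04), Sstr3 (−0.01), Grik3 (−0.02), Cacna1d (+0.08), Npy1r (+0.12) and Dio2 (+0.1).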
